A study of Mus musculus with 34 samples.

Results

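Upp1, A430005L14Rik, Dgkb, Tmprss5, Serpinb1b and Sgo2b are 6 protein-coding genes, of 48709 genes listed in the count files, that were chosen by their decrease in mouse ES cells without MTA proteins. The values that selected them are the differences between Mta123KO and Control ES cells, so those differences are described here without a test. Tests were kept for single Mta mutants and for culture in Control cells. RNA-seq counts came from 34 libraries of 129/Ola ES cells. The single-mutant set held 18 libraries, 3 for each of 6 groups, all from cells kept in 2i and LIF (2iL): Mta1_del/del with Mta1_flox/flox, Mta2_KO with Mta2_WT, and Mta3_del/del with Mta3_flox/flox. The second set held 16 libraries, 4 for each of Control and Mta123KO cells labelled 2iL or labelled 48 h in N2B27 medium lacking the inhibitors and LIF. By the study's list of lines, its Control ES cells were not wild type: 1 Mta1 allele was deleted and both Mta3 alleles were floxed. Mta123KO cells came from a separate primary line with both Mta1 alleles deleted and Mta3 floxed, in which Mta2 was disrupted on both alleles and Mta3 was then deleted with Cre. Deletion by Cre made the Mta1 and Mta3 mutants, and the Mta2 mutant was 1 derived line. Each group of the second set held 2 libraries of each of 2 lines, so its 4 libraries are not 4 independent lines.

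MTA proteins are the scaffold subunits of NuRD, a chromatin complex that combines nucleosome remodelling by CHD4 with histone deacetylation by HDAC1 and HDAC2. NuRD is best known for restraining transcription at enhancers and promoters, and also keeps some genes active in ES cells. The 6 genes have unrelated products. Upp1 encodes uridine phosphorylase 1, which splits uridine into uracil and a ribose phosphate. Dgkb encodes diacylglycerol kinase beta, which converts the lipid messenger diacylglycerol to phosphatidic acid. Tmprss5 encodes a membrane-anchored serine protease and Serpinb1b an intracellular serine protease inhibitor of the clade B serpins. Sgo2b is a close relative of Sgo2a, whose shugoshin protein guards centromeric cohesin during meiosis. A430005L14Rik has no assigned function that is named here.

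On GRCm38 the genes lie on 6 chromosomes: Upp1 (ENSMUSG00000020407) on chromosome 11 from 9118103 to 9136170, A430005L14Rik (ENSMUSG00000047613) on chromosome 4 from 153957237 to 153961925, Dgkb (ENSMUSG00000036095) on chromosome 12 from 37817726 to 38634239, Tmprss5 (ENSMUSG00000032268) on chromosome 9 from 49081260 to 49117587 and Serpinb1b (ENSMUSG00000051029) on chromosome 13 from 33078575 to 33094380, these 5 on the plus strand. Sgo2b (ENSMUSG00000094443) lies on the minus strand of chromosome 8 from 63924694 to 63952248. The 150 bases before the RefSeq start site (GRCm38.p6) are given 5′ to 3′ for 3 genes. Upp1 and A430005L14Rik were lower in Mta123KO under both culture labels. Sgo2b was lower in Mta123KO labelled 48 h and higher in Mta2_KO than in Mta2_WT cells. Whether the start regions had a part in the loss was not tested. Capitals mark CG dinucleotides. The stretches are chr11:9117953-9118102 on the plus strand, chr4:153957087-153957236 on the plus strand and chr8:63952171-63952320 on the minus strand.
Upp1: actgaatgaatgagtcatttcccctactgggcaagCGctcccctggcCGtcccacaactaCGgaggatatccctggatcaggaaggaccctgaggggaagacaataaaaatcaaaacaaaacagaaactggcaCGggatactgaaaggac
A430005L14Rik: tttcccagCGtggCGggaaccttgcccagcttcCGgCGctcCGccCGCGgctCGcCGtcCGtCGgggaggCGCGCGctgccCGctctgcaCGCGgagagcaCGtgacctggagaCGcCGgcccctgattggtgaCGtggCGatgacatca
Sgo2b: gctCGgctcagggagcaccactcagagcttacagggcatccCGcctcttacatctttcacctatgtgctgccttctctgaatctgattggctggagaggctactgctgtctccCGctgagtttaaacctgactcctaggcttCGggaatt
In a window of 300 bases around the start site, from 250 bases before it, A430005L14Rik held 43 CG dinucleotides, a number reached by 2.61% of 32851 RefSeq start sites. Sgo2b held 12, Upp1 8, Dgkb 3, Serpinb1b 2 and Tmprss5 1, against a median of 7. RefSeq listed 3 start sites for Upp1 and 2 for Tmprss5, of which the one nearest the annotated gene start was used. For Dgkb, Tmprss5, Serpinb1b and Sgo2b that site lies inside the gene of the GENCODE annotation. The printed Sgo2b stretch is thus within the annotated gene up to position 63952248. Motifs were searched on both strands of the 300 bases. The letters CCAAT were found at A430005L14Rik, Serpinb1b and Sgo2b and at 37.4% of all start sites, GGGCGG at Upp1 and A430005L14Rik and at 35.7%, CACGTG at A430005L14Rik and at 7.15%, and TTCNNNGAA at Sgo2b and at 8.30%. TATAAA (13.6% of all start sites) and AAGGTCA (4.72%) were found at none of the 6 windows.

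Libraries of single mutants and their parents summed to between 13105820 and 40613585 counts, and the 16 others to between 37855790 and 57602285. For those 16, culture in the file name is the reverse of culture in the sample label. The labels were followed, and cultures are named as labelled throughout. Against the labels, the summed level of 6 naive pluripotency genes (Esrrb, Nanog, Klf4, Zfp42, Tfcp2l1 and Tbx3) ran from 147 to 228 CPM in Control libraries labelled 2iL and from 3592 to 3954 CPM in those labelled 48 h, and each of the 6 was called higher in the latter. The 18 single-mutant libraries, labelled 2iL, ran from 3063 to 5642 CPM. Formative or primed markers also ran against the labels, from 747 to 1287 CPM in Control labelled 2iL and from 73.5 to 85.1 CPM labelled 48 h. All 4 were called lower in the latter, and the single-mutant libraries ran from 59.4 to 216 CPM. Mta2 RNA was at 10.3 CPM in Mta2_KO and at 236 in Mta2_WT, and at 6.73 against 122 CPM in Mta123KO and Control labelled 2iL. RNA of the other two targeted genes was reduced in part in Mta123KO: Mta1 was at 24.6 against 41.6 CPM labelled 2iL and 17.8 against 28.7 CPM labelled 48 h, and Mta3 at 19.0 against 64.6 and 15.0 against 41.0 CPM. Gene counts do not show whether this RNA holds the deleted exons. Mta3 was at 11.2 CPM in Mta3_del/del and 67.4 in Mta3_flox/flox. Mta1 RNA was reduced in part, to 43.4 CPM in Mta1_del/del from 84.5 in Mta1_flox/flox (log2 -0.97, adjusted p = 1). CPM is a gene's count per standard amount of library, scaled by trimmed mean of M values (TMM) within each set. A gene was called where the adjusted p of edgeR's quasi-likelihood test was under 0.05 and the log2 fold change was beyond 1 in size.

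A pair of patterns was seen among the 6 genes in the second set: Upp1 and A430005L14Rik were expressed in Control cells under both culture labels and were lower in Mta123KO under both, whereas the other 4 were expressed mainly under 1 culture label and were at most at 0.171 CPM in any Mta123KO library. Upp1 was the most abundant. In Control it was at 275 and 304 CPM in the libraries of line 1 and at 169 and 201 CPM in those of line 2 labelled 2iL, and at 248, 269, 217 and 267 CPM labelled 48 h. In Mta123KO it was at 6.72 and 9.51 CPM in line 1 and at 19.3 and 24.7 CPM in line 2 labelled 2iL. Labelled 48 h, Mta123KO held 18.5 and 21.1 CPM in line 1 and 38.9 and 38.3 CPM in line 2. Every Mta123KO library was below every Control library, and under each label both libraries of Mta123KO line 1 were below both of line 2. Mean Upp1 in Mta123KO was 6.35% of Control labelled 2iL (log2 -3.98, SE 0.42) and 11.7% labelled 48 h (log2 -3.08, SE 0.25). The SEs given for the 6 genes between Mta123KO and Control treat libraries of the same line as independent. Those SEs do not allow for the choice of the genes by the same differences, so no test is drawn from them.

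A430005L14Rik kept a larger share of its level. Control libraries held 27.3, 28.0, 28.2 and 29.7 CPM labelled 2iL and 22.5, 21.0, 21.1 and 20.7 CPM labelled 48 h. Mta123KO libraries held 5.79, 6.34, 8.41 and 7.76 CPM labelled 2iL and 7.02, 7.57, 8.50 and 7.64 CPM labelled 48 h. The genotypes did not overlap under either label, and the spread within a group was at most 1.22 CPM (SD). The means in Mta123KO were 25.0% of Control labelled 2iL (SE 0.12 on the log2 scale) and 36.0% labelled 48 h (log2 -1.46, SE 0.09). Of its transcript stretches of 50 bases, 5.46% also occur in transcripts of Gm12247, and how reads with several matches were counted is not given in the sources used here.

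Dgkb was expressed in Control labelled 2iL alone. Its 4 Control libraries labelled 2iL held 1.81, 2.13, 2.85 and 2.76 CPM (459 reads in all), and the 4 Mta123KO libraries held 4, 0, 1 and 2 reads. Counts in Mta123KO were thus 1.65% of Control, with an exact 95% interval for counting error of 0.66% to 3.43%. Labelled 48 h, the 4 Control libraries held 13 reads and the 4 Mta123KO libraries held 3, a ratio of 21.9% with a counting interval of 3.99% to 79.5%. Dgkb fell below the low-count filter in that comparison. Antisense and other annotated genes overlap Dgkb, and whether counting used strand is not given in the sources used here.

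Tmprss5, Serpinb1b and Sgo2b were expressed in Control labelled 48 h. Tmprss5 was at 1.03 and 1.13 CPM in line 1 and 3.13 and 3.57 CPM in line 2, and between 0.0366 and 0.0878 CPM in Mta123KO. Line 1 was also the lower Control line labelled 2iL, with 0.0995 and 0.0616 CPM in line 1 and 0.307 and 0.463 CPM in line 2, and there Mta123KO (0.106, 0.113, 0.171 and 0.152 CPM) lay within the range of Control. Labelled 48 h, counts in Mta123KO were 2.72% of Control, with an exact interval of 1.35% to 4.92%.

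Serpinb1b was at 1.23, 1.63, 1.86 and 0.587 CPM in Control labelled 48 h, and the 4 Mta123KO libraries held 1, 1, 1 and 3 reads. Those 6 reads were 2.44% of Control, with an exact interval of 0.886% to 5.39%. Labelled 2iL it had 2 reads in 1 Control library and none in the other 7 libraries, so no loss could be seen there. Sgo2b was at 4.12, 3.21, 3.35 and 2.04 CPM in Control labelled 48 h and between 0.0219 and 0.0890 CPM in Mta123KO. Counts of Sgo2b in Mta123KO were 1.96% of Control, with an exact interval of 1.01% to 3.45%. Labelled 2iL, Sgo2b ran from 0.0882 to 0.369 CPM in Control and from 0.0489 to 0.0905 CPM in Mta123KO, where the groups overlapped. The intervals cover counting error only, not the spread between lines or the choice of the genes by their decrease in Mta123KO. Of the 50-base stretches of Sgo2b, 3.48% also occur in Sgo2a, and 3.09% of those of Serpinb1b in Serpinb1a or Serpinb1c. Bulk libraries cannot tell fewer expressing cells from less RNA in each cell.

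**Figure D1:**
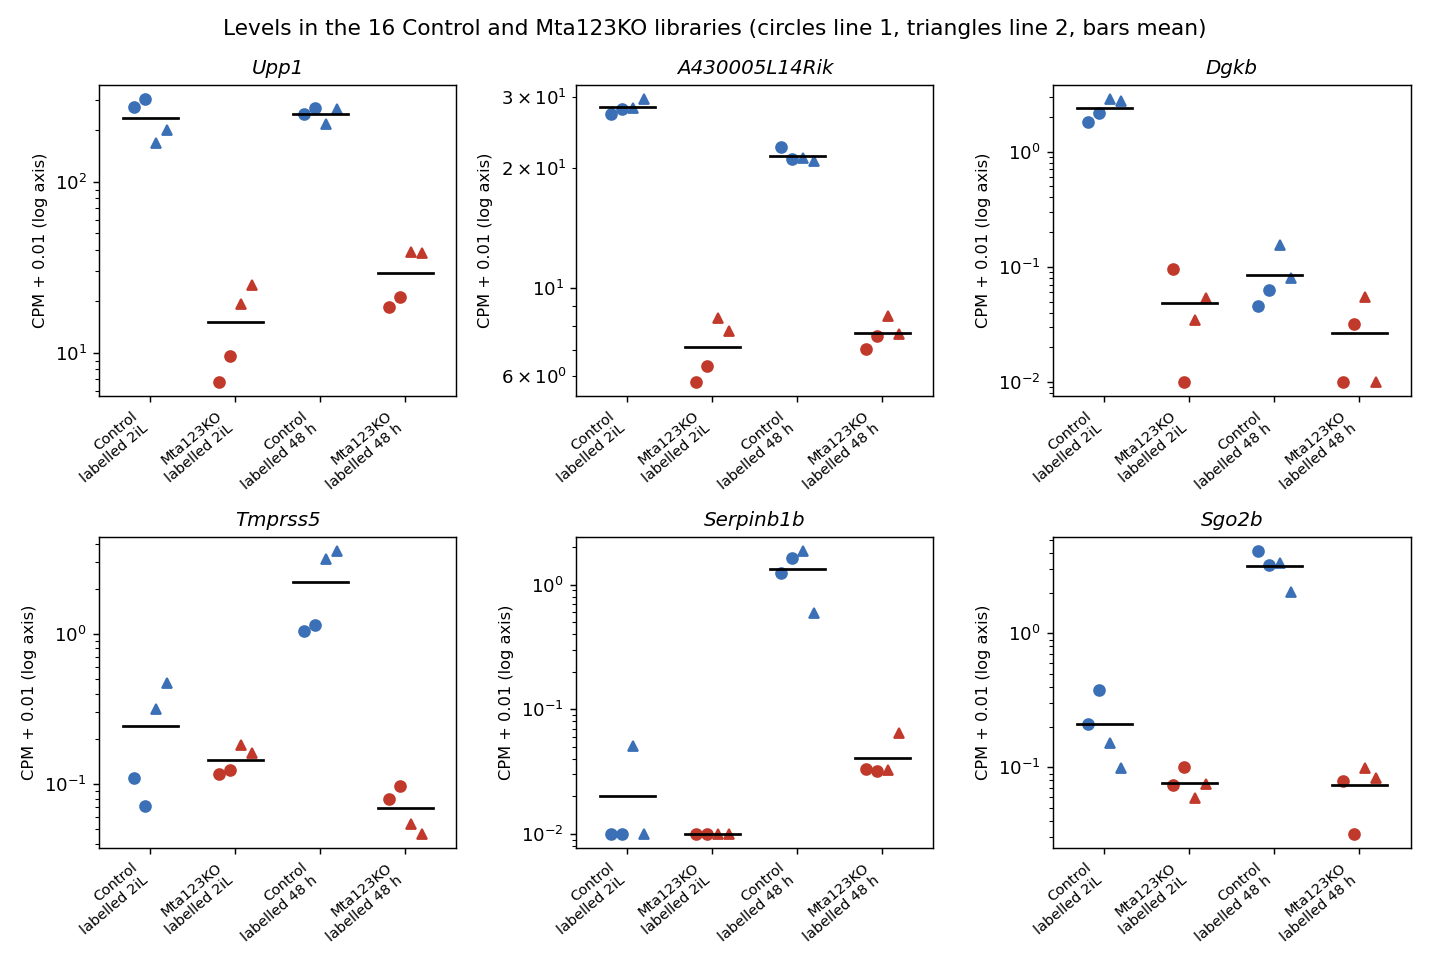
CPM with 0.01 added, on log axes, of the 6 genes in the 16 libraries of the second set, with circles for line 1, triangles for line 2, blue for Control, red for Mta123KO and a bar at each mean. Upp1 and A430005L14Rik are separated by genotype under both culture labels, Dgkb is high in Control labelled 2iL and Tmprss5, Serpinb1b and Sgo2b in Control labelled 48 h.

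Marker genes of other states also differed between Mta123KO and Control labelled 2iL. The summed naive markers ran from 395 to 529 CPM in Mta123KO, above Control, with 4 of 6 called higher. Formative or primed markers ran from 228 to 311 CPM against 747 to 1287 CPM, with 3 of 4 called lower and 1 higher. Feeder fibroblast markers ran from 6.44 to 7.65 CPM against 1.21 to 2.54 CPM, with 3 of 3 tested called higher, and neural markers from 33.1 to 42.9 CPM against 74.9 to 96.4 CPM, with 3 of 4 called lower. Labelled 48 h, naive markers ran from 1863 to 2762 CPM against 3592 to 3954 CPM, with 1 of 6 called lower. Their part in the loss of the 6 genes was not tested. The 3 genes Tmprss5, Serpinb1b and Sgo2b did not pass the low-count filter in the comparison labelled 2iL, and Dgkb did not labelled 48 h. Per kilobase of annotated exon, Control labelled 2iL held 121 ± 32.2 CPM of Upp1 (SD, n = 4), 18.2 ± 0.660 of A430005L14Rik and 0.210 ± 0.0437 of Dgkb. Labelled 48 h, it held 0.833 ± 0.225 of Sgo2b, 0.724 ± 0.432 of Tmprss5 and 0.688 ± 0.289 of Serpinb1b, which did not differ beyond their spread.

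In Control cells, 4 of the 6 genes were called between the culture labels: Dgkb was lower and Tmprss5, Serpinb1b and Sgo2b were higher in the libraries labelled 48 h. Over all 21240 genes tested, 13.2% were called lower and 10.4% higher. These Control libraries also served the contrast by which the genes were chosen, so a gene selected for its loss under 1 label would tend to be high in Control under that label. Dgkb counts labelled 48 h were 3.07% of those labelled 2iL (log2 -4.98, SE 0.34, adjusted p = 3.72e-07). Tmprss5 was 9.42-fold higher by counts labelled 48 h (log2 3.24, SE 0.59, adjusted p = 0.000636) and Sgo2b 16.1-fold higher (log2 3.96, SE 0.35, adjusted p = 3.06e-06). Serpinb1b had 233 reads against 2, a ratio of 126 with an exact counting interval of 34.5 to 1047 (adjusted p = 9.36e-06). A430005L14Rik was lower by a smaller step in every library labelled 48 h (log2 -0.41, SE 0.06, adjusted p = 9.57e-05), which did not pass the fold threshold and, with spike-in scaling, not the test either (log2 -0.23, adjusted p = 0.307). For Upp1 the log2 difference was 0.07, with a 95% interval from -0.28 to 0.43 (adjusted p = 0.718). Exchanging the culture labels, as the file names would have it, turns each of these directions around. The levels of naive and of formative or primed markers given above moved with the same labels, and their part in these differences was not tested.

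In Mta123KO cells, Upp1 had a mean of 15.1 ± 8.40 CPM labelled 2iL and 29.2 ± 10.9 CPM labelled 48 h (SD, n = 4), in overlapping ranges. A430005L14Rik had 7.07 ± 1.22 and 7.68 ± 0.613 CPM, also overlapping. Sgo2b had 12 reads over the 4 libraries under each label. Tmprss5 had 24 reads labelled 2iL and 11 labelled 48 h, and its libraries labelled 48 h all lay below those labelled 2iL, the reverse of the order in Control. That order rests on 2 to 4 reads a library labelled 48 h and 5 to 7 labelled 2iL. The step between culture labels that Tmprss5 and Sgo2b showed in Control was thus not seen in Mta123KO. The genes were chosen for their decrease in Mta123KO, so a missing step there follows from that choice and is not a separate result. For Dgkb and Serpinb1b the Mta123KO libraries held at most 7 reads in any group.

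Each single mutant kept at least 39.6% of its parental mean for each of the genes tested among the 6, and the decreases that were called were in Mta2_KO cells. Tmprss5 and Serpinb1b were called lower in Mta2_KO, against 6.04% of all 15602 genes tested, and Sgo2b was called higher, against 5.31%. None of the tested genes among the 6 was called in Mta3_del/del cells, against 6.06% of all genes. None was called in Mta1_del/del cells either. There 0% of 14561 genes were called, 50 had an unadjusted p under 0.05 and DESeq2 also called 0. Even the deleted gene Mta1 did not pass the adjusted test there (log2 -0.97). The lack of calls in Mta1_del/del therefore does not show that the 6 genes were unchanged.

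Tmprss5 was at 1.21, 1.66 and 1.66 CPM in Mta2_KO and at 4.01, 3.90 and 3.51 CPM in Mta2_WT (log2 -1.33, SE 0.16, adjusted p = 0.000135). Serpinb1b was at 0.513, 0.524 and 0.391 CPM against 1.09, 1.15 and 1.37 CPM (log2 -1.31, SE 0.26, adjusted p = 0.00269). Neither pair of groups overlapped, and the means in Mta2_KO were 39.7% and 39.6% of Mta2_WT. Sgo2b moved the other way: it was at 14.2, 15.8 and 15.3 CPM in Mta2_KO and at 3.76, 3.79 and 3.69 CPM in Mta2_WT (log2 2.01, SE 0.09, adjusted p = 1.56e-07). Every Mta2_KO library thus held over 3 times the Sgo2b level of any Mta2_WT library, while Sgo2b was near 0 in Mta123KO under both labels.

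Upp1 and A430005L14Rik were lower in Mta2_KO by smaller steps, below the fold threshold. Upp1 was at 255, 294 and 244 CPM against 354, 338 and 340 CPM (log2 -0.37, SE 0.07, adjusted p = 0.00129). A430005L14Rik was at 25.4, 27.8 and 25.7 CPM against 32.4, 35.2 and 33.3 CPM (log2 -0.35, SE 0.06, adjusted p = 0.000882). Dgkb had 10, 2 and 8 reads in Mta2_KO and 13, 14 and 11 reads in Mta2_WT, a log2 difference of -0.88 with an interval from -2.07 to 0.30 (adjusted p = 0.2).

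Apart from Sgo2b, which stayed called, these Mta2 results did not pass the test in 1 fit of all 18 single-mutant libraries, which share 1 estimate of spread. There the log2 differences were -1.32 for Tmprss5 (adjusted p = 0.177), -1.31 for Serpinb1b (adjusted p = 0.218), -0.37 for Upp1 (adjusted p = 0.419) and -0.34 for A430005L14Rik (adjusted p = 0.127). Nothing in the sources shows that the 3 libraries of a group came from separate lines, so the p-values may measure technical spread. Of the 6 naive markers, 2 were called lower in Mta2_KO, where their summed level ran from 3308 to 3514 CPM against 4528 to 4971 CPM in Mta2_WT. Summed trophoblast markers ran from 10.7 to 13.6 CPM against 31.8 to 34.1 CPM, with 1 of 4 called lower, and neural markers from 58.2 to 63.5 CPM against 21.5 to 28.7 CPM, with 2 of 4 called higher and 2 lower. Of 4 primitive endoderm markers tested, 2 were called lower and 1 higher, and 1 of 4 formative or primed markers was called higher. The part of these markers in the Mta2 results was not tested.

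In Mta3_del/del cells Tmprss5 was at 0.994, 1.30 and 0.561 CPM against 1.52, 1.73 and 2.01 CPM in Mta3_flox/flox. The groups did not overlap, but the log2 difference of -0.92 (SE 0.39) did not pass correction (unadjusted p = 0.043, adjusted p = 0.127). Upp1 in Mta3_del/del was at 322, 324 and 499 CPM against 292, 195 and 345 CPM, a log2 difference of 0.42 with an interval from -0.10 to 0.93. The log2 differences of the other 3 tested genes were 0.42 for Serpinb1b (-0.64 to 1.47), -0.07 for A430005L14Rik (-0.37 to 0.24) and -0.32 for Sgo2b (-1.12 to 0.49), and Dgkb, with 10 and 8 reads, was not tested.

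The Mta1 series was the most variable. Tmprss5 was at 3.49, 1.22 and 0.2996 CPM in Mta1_del/del and at 2.34, 2.42 and 0.374 CPM in Mta1_flox/flox, and Serpinb1b at 1.66, 0.833 and 0.374 CPM against 3.28, 0.880 and 0.249 CPM. Libraries of the same number deviated together in this series, and for both genes the spread within a group exceeded the difference between the groups. The intervals of the log2 difference ran from -2.29 to 2.20 for Tmprss5, from -2.83 to 1.54 for Serpinb1b, from -0.58 to 1.23 for Sgo2b, from -0.63 to 0.86 for Upp1 and from -0.20 to 0.69 for A430005L14Rik. With the replicate number as a block they narrowed to -1.19 to 0.81 for Tmprss5 and -1.37 to 0.66 for Serpinb1b, with differences of -0.19 and -0.35, and none of the 5 was called. Dgkb had 2 reads in Mta1_del/del and none in Mta1_flox/flox.

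Whether the single mutants differed from each other was tested in 1 fit of the 18 libraries, a test chosen after the data were seen. An effect here is the difference between a mutant and its parental or wild-type group. Mta2_KO was 1 derived line, so its line and its genotype cannot be told apart. For Sgo2b the Mta2 effect exceeded the Mta3 effect by 2.28 on the log2 scale (SE 0.47, adjusted p = 0.00524). Its excess over the Mta1 effect was 1.70 (SE 0.47, adjusted p = 0.0615). Among parental and wild-type libraries, Sgo2b ran from 3.69 CPM in Mta2_WT to 15.5 CPM in Mta3_flox/flox. For Tmprss5 the Mta2 effect differed from the Mta1 effect by -1.30 (SE 0.90, adjusted p = 0.569) and from the Mta3 effect by -0.45 (SE 0.91, adjusted p = 0.767). For Serpinb1b the corresponding differences were -0.66 (SE 0.94, adjusted p = 0.837) and -1.79 (SE 0.95, adjusted p = 0.212). The decreases of Tmprss5 and Serpinb1b were therefore not shown to be particular to Mta2.

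**Figure D2:**
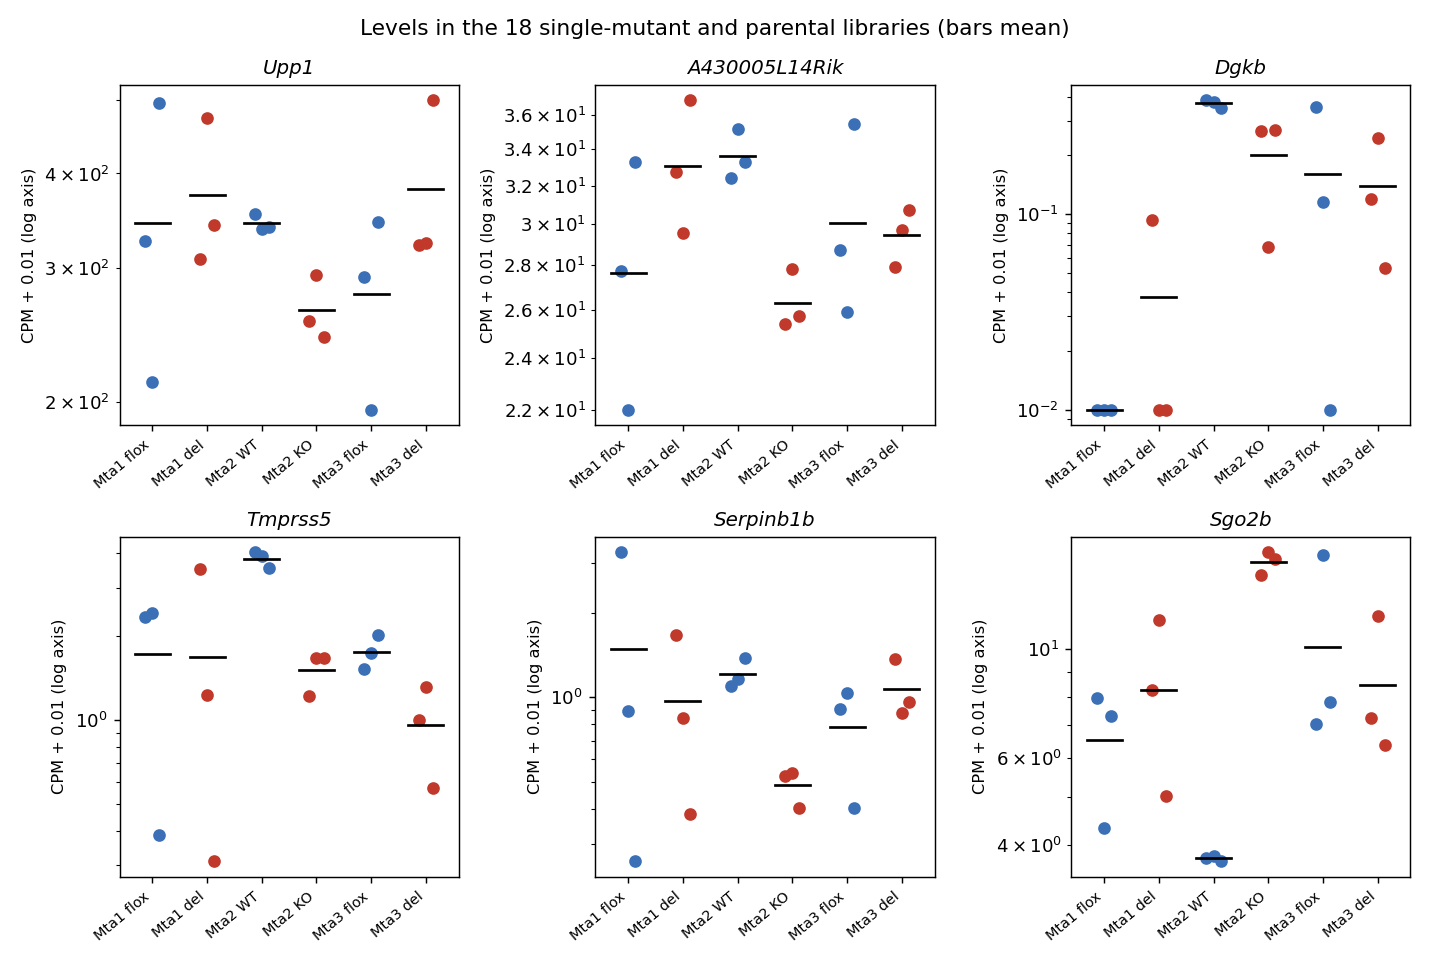
CPM with 0.01 added, on log axes, of the 6 genes in the 18 single-mutant libraries, with blue for parental or wild-type cells, red for mutants and a bar at each mean. Tmprss5 and Serpinb1b are lower and Sgo2b is higher in the 3 Mta2_KO libraries than in the 3 Mta2_WT libraries, and the Mta1 groups overlap for each gene.

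**Figure D3:**
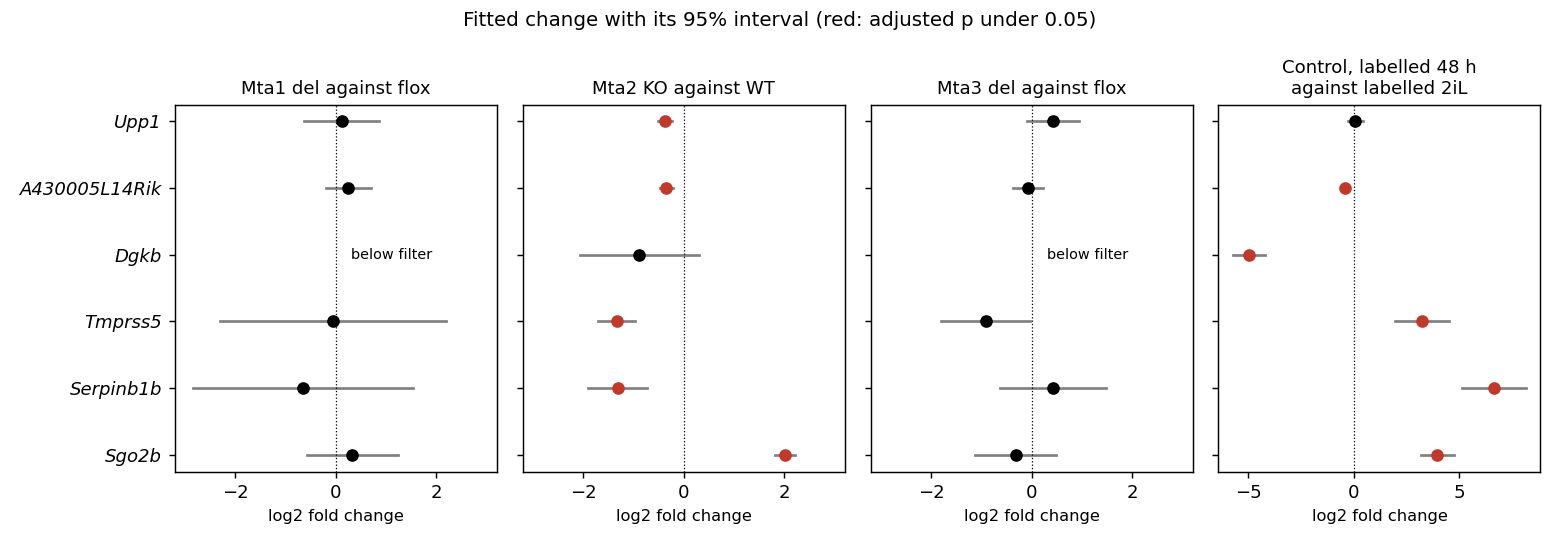
Log2 fold change with its 95% interval from edgeR for each gene in the 3 single mutants and between the culture labels in Control, with red points where the adjusted p was under 0.05 and the x axis of the last panel wider. In the Mta2 panel Sgo2b stands at 2.01 and Tmprss5 and Serpinb1b at -1.33 and -1.31, and in the culture panel Dgkb is at -4.98 and Sgo2b at 3.96.

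To order all 10 groups, CPM was computed over the genes that both sets of files list. The sets were sequenced and scaled separately, so an order across them is a description. For Upp1 the 8 groups other than Mta123KO ran from 264 ± 26.1 CPM in Mta2_KO to 382 ± 102 CPM in Mta3_del/del (SD), with no neighbours in the order apart beyond their spread, and then came Mta123KO labelled 48 h at 42.8 ± 16.1 and labelled 2iL at 22.4 ± 12.5 CPM. A430005L14Rik was highest in Control labelled 2iL (43.4 ± 1.47 CPM), then ran from 33.6 ± 1.40 in Mta2_WT to 26.3 ± 1.33 in Mta2_KO without a step beyond the spread, and was at 11.2 ± 0.953 and 10.5 ± 1.88 CPM in Mta123KO. Dgkb was at 3.66 ± 0.764 CPM in Control labelled 2iL and at 0.360 ± 0.0165 CPM or less in the other 9 groups. The single-mutant libraries, all labelled 2iL, thus lay far from Control labelled 2iL for Dgkb.

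For Tmprss5, Mta2_WT (3.80 ± 0.265 CPM) and Control labelled 48 h (3.35 ± 1.99) came first, and Mta123KO labelled 48 h (0.0871 ± 0.0340) last. The other parents, Mta3_flox/flox (1.75 ± 0.247) and Mta1_flox/flox (1.71 ± 1.16), lay below Mta2_WT. Mta2_KO (1.51 ± 0.263) lay within the spread of these 2 parents. Serpinb1b ran from 2.01 ± 0.846 CPM in Control labelled 48 h to 0.476 ± 0.0739 in Mta2_KO with each neighbour within the spread, and next came Mta123KO labelled 48 h at 0.0447 ± 0.0237 CPM. Sgo2b was highest in Mta2_KO (15.1 ± 0.819 CPM), followed by both Mta3 groups and both Mta1 groups, from 10.1 ± 4.70 to 6.54 ± 1.94 CPM. Control labelled 48 h (4.82 ± 1.31) and Mta2_WT (3.75 ± 0.0496) came next, and Control labelled 2iL was at 0.307 ± 0.188 CPM, above both Mta123KO groups at 0.0993 ± 0.0256 and 0.0928 ± 0.0426 CPM. For Tmprss5, Serpinb1b and Sgo2b the single-mutant parents held more than Control labelled 2iL.

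The genes most like each of the 6 over the 16 libraries were found by the root mean square difference of centred log2 CPM, among genes whose mean reached 1 CPM in some group. Nearest to Upp1 were 4930526L06Rik (0.45), Erv3 (0.46) and Ankrd35 (0.49), where Upp1 itself varied by 1.92 about its mean. Ankrd35 was at 41.8 and 3.86 CPM in Control and Mta123KO labelled 2iL and at 27.7 and 5.07 CPM labelled 48 h. Nearest to A430005L14Rik were Syce2, which encodes a protein of the synaptonemal complex of meiosis (0.16), Armcx1 (0.16) and Arl4a (0.19). Syce2 was at 41.9 and 10.8 CPM labelled 2iL and at 26.5 and 10.1 CPM labelled 48 h. For Dgkb they were Irs4, an adaptor of insulin receptor signalling (0.72), Vrtn (0.73) and Cdk5r2 (0.78). Vrtn was at 46.4 CPM in Control labelled 2iL, 1.39 in Mta123KO and 1.70 in Control labelled 48 h.

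The 3 genes of the opposite culture pattern had other company. Nearest to Tmprss5 was Inhbb, which encodes an inhibin and activin subunit (0.52), with 9.63 CPM in Control labelled 48 h and 0.579 in Mta123KO, then Ceacam1 (0.77) and Rapgef3os2 (0.79). Nearest to Serpinb1b were Slit2, a secreted guidance factor (0.52), Fgf10, a fibroblast growth factor (0.67), and Id4, an inhibitor of helix-loop-helix factors (0.75). Slit2 rose from 2.38 CPM in Control labelled 2iL to 41.5 labelled 48 h and was at 2.80 CPM in Mta123KO labelled 48 h. Nearest to Sgo2b were Ly75, an endocytic receptor (0.58), Gm13571 (0.59) and Gm13580 (0.64). Ly75 was at 225 CPM in Control labelled 48 h and at 12.1 CPM in Mta123KO.

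Genes beside the 6 were examined as the nearest tested protein-coding gene on each side, which could lie far off. Distances between starts ran from 7212 bases (Dffb, beside A430005L14Rik) to 2413261 bases (Palld, beside Sgo2b). Ispd and Etv1, beside Dgkb, lay 1436276 and 961654 bases away, and Ajap1, beside A430005L14Rik, 584016. Of 12 neighbours, 7 were called in Mta123KO labelled 2iL, against 20.6% of all 21651 genes tested, and 4 of 9 tested labelled 48 h, against 20.0% of 21079. The neighbours were taken from tested genes, and with the libraries of each line summed 3 were called labelled 2iL and 2 labelled 48 h. Those called did not share a direction. Tll1, a metalloprotease gene whose start lies 90237 bases from that of Sgo2b, was lower under both labels: from 5.36 to 0.281 CPM labelled 2iL (log2 -4.24, SE 0.15, adjusted p = 8.04e-07) and from 4.24 to 0.289 CPM labelled 48 h (log2 -3.84, SE 0.26, adjusted p = 8.17e-06). In Mta2_KO, where Sgo2b was higher, Tll1 was at 5.82 CPM against 10.3 in Mta2_WT (log2 -0.82, adjusted p = 0.000112). Beside Upp1, Gm11992 was called lower (log2 -1.47 and -1.07) and Abca13 called higher (log2 1.62 and 1.51) under both labels.

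Serpinb9b, a serpin gene beside Serpinb1b, was called higher labelled 2iL (2.15 against 0.311 CPM, log2 2.79) and lower labelled 48 h (3.21 against 8.22 CPM, log2 -1.34). Ajap1 beside A430005L14Rik, Ankk1 beside Tmprss5 and Serpinb9e beside Serpinb1b were called higher labelled 2iL, from 0.238, 0.0419 and 0.00513 CPM in Control to 0.775, 0.755 and 0.853 CPM in Mta123KO. These 3 passed the low-count filter through the group in which they were high. Zw10, a kinetochore gene whose start lies 25647 bases from that of Tmprss5, was not called under either label, and neither were Dffb beside A430005L14Rik, Ispd and Etv1 beside Dgkb or Palld beside Sgo2b. Several of these differed below the fold threshold. Labelled 48 h, Zw10 was at 30.1 against 56.9 CPM (log2 -0.90, adjusted p = 2.67e-05). Etv1 was lower under both labels (log2 -0.89 and -0.98, adjusted p = 3.91e-05 and 0.0187). Dffb was higher labelled 2iL (log2 0.52, adjusted p = 0.0134). None of the 10 neighbours tested in Mta2_KO was called, though there too some differed below the fold threshold, among them Etv1 (log2 -0.96, adjusted p = 1.17e-05).

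Relatives of the 6 genes by function were taken as 5 lists of 96 genes, of which 94 were in the files and 66 were tested under each label. Labelled 2iL, 5 were called lower in Mta123KO, against 7.43% of all genes tested, and 12 higher, against 13.2%. Labelled 48 h, 9 were called lower, against 5.93%, and 8 higher, against 14.1%. The medians over all genes tested were 0.01 on the log2 scale under both labels.

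Type II transmembrane serine proteases, the family of Tmprss5, numbered 16, of which 9 were tested labelled 2iL and 8 labelled 48 h. Of the 9 labelled 2iL, 6 were called higher and 1 lower, with a median log2 difference of 2.89, and of the 8 labelled 48 h, 5 were called higher and 0 lower, with a median of 3.11. Tmprss3, Tmprss4 and Tmprss13, at most at 0.181 CPM in Control labelled 2iL, passed the low-count filter through Mta123KO, where they were high. Labelled 48 h, the same held for Tmprss4, Tmprss6 and Tmprss13, at most at 0.203 CPM in Control. These counts and medians therefore do not describe the family as a whole. Tmprss11f was called lower labelled 2iL, at 0.669 against 1.88 CPM. Tmprss2, an airway and epithelial protease, was called higher under both labels, at 13.2 ± 10.5 against 0.275 ± 0.0352 CPM labelled 2iL and 17.8 ± 14.3 against 0.353 ± 0.224 CPM labelled 48 h (SD, n = 4). Tmprss4, Tmprss6, which cleaves hemojuvelin in iron control, and Tmprss13 were likewise called higher under both. St14, encoding matriptase, was called higher labelled 2iL only, at 101 ± 35.9 against 21.8 ± 1.03 CPM. Trophoblast markers moved with these genes: 4 of 4 were called higher in Mta123KO labelled 2iL, where their summed level ran from 12.9 to 29.4 CPM against 3.30 to 4.05 in Control, and 2 of 4 labelled 48 h (13.1 to 17.3 against 8.08 to 11.4 CPM). Their part in the protease result was not tested.

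Clade B serpins, the family of Serpinb1b, numbered 23. Of 5 tested labelled 2iL, 3 were called higher (median log2 1.82), and of 8 tested labelled 48 h, 5 were called lower and 0 higher (median -1.80). The labels tested different genes: Serpinb9e entered labelled 2iL through Mta123KO, and Serpinb1a, Serpinb1c and Serpinb6b entered labelled 48 h through Control, so the medians are not a comparison between labels. Serpinb9 and Serpinb9b were called under both, higher labelled 2iL and lower labelled 48 h. Serpinb1a, the close relative of Serpinb1b that inhibits neutrophil elastase, was at 0.483 ± 0.0632 CPM in Mta123KO labelled 48 h against 7.32 ± 1.41 in Control (log2 -3.89, SD, n = 4). Serpinb1c was at 0.197 ± 0.228 against 1.45 ± 0.411 CPM, and Serpinb9, a granzyme B inhibitor, at 0.780 ± 0.233 against 3.82 ± 0.505 CPM. Serpinb6b was also called lower labelled 48 h.

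Diacylglycerol kinases and enzymes of pyrimidine salvage and breakdown showed no common direction. Among 10 diacylglycerol kinases tested labelled 2iL, 1 was called lower and 2 higher (median 0.09), and among 9 labelled 48 h, 2 were called lower and 0 higher (median 0.02). Dgkh was called lower under both labels, at 4.15 ± 0.380 against 14.4 ± 1.08 CPM and 4.16 ± 0.818 against 14.2 ± 3.16 CPM (SD, n = 4). Dgka, the kinase known from T-cell signalling, was called higher labelled 2iL (51.8 ± 20.3 against 16.2 ± 1.40 CPM). Of 18 pyrimidine genes tested under each label, 3 were called lower and 1 higher labelled 2iL (median -0.08), and 2 lower and 2 higher labelled 48 h (median -0.09). Tk1, thymidine kinase of salvage, was at 27.1 ± 1.79 against 60.6 ± 2.81 CPM labelled 2iL, and the nucleoside transporter Slc28a3 was called higher under both labels (log2 2.00 and 1.13). Labelled 2iL, Slc28a3 was at 0.173 CPM in Control and passed the low-count filter through Mta123KO (0.694 CPM). Genes of cohesin and its protection, the class of Sgo2b, were mostly not called: 0 of 24 labelled 2iL (median -0.06) and 1 of 23 labelled 48 h (median -0.12). Several differed below the fold threshold, among them Sgo2a, the close relative of Sgo2b, at 82.6 CPM in Mta123KO against 161 in Control labelled 48 h (log2 -0.94, adjusted p = 7.69e-05), and Stag2 labelled 2iL (log2 -0.86, adjusted p = 1.34e-05). The 1 called was Rec8, the meiotic cohesin subunit, at 40.3 ± 11.4 CPM in Mta123KO against 15.2 ± 3.10 in Control.

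**Figure D4:**
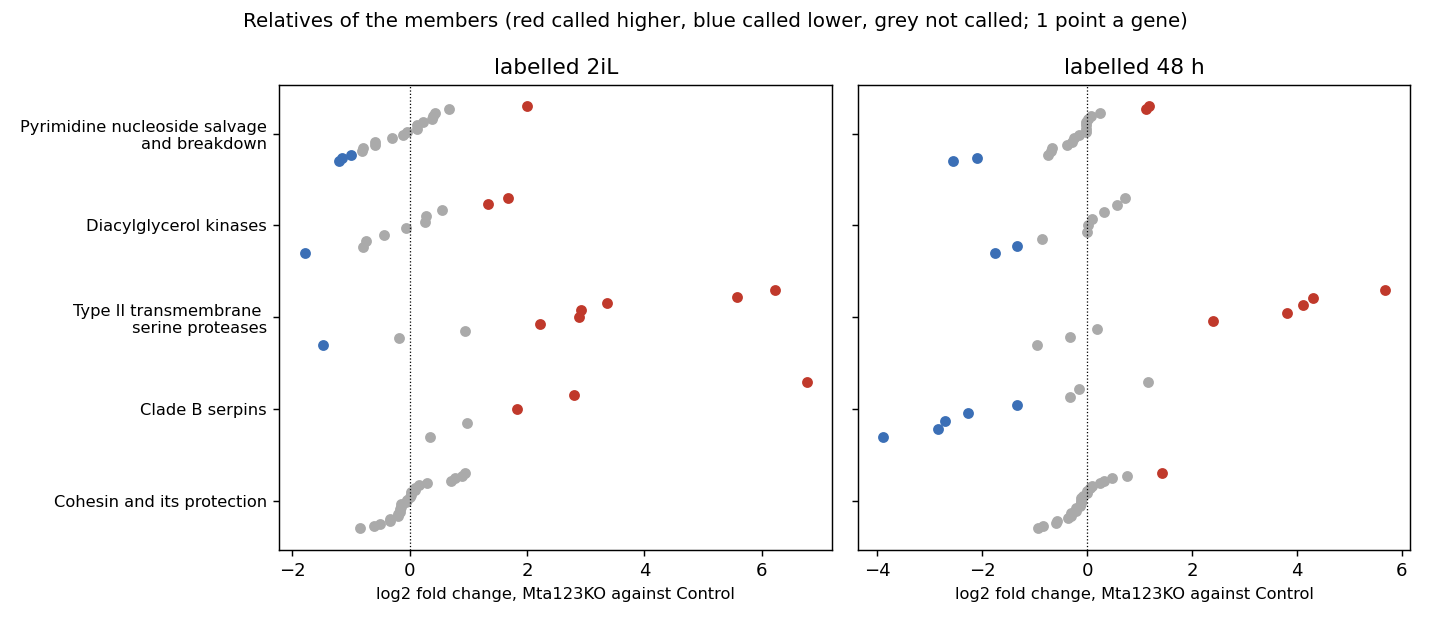
Log2 fold change between Mta123KO and Control of the tested relatives of the 6 genes in 5 lists, with 1 point a gene, red called higher, blue called lower and grey not called. Of the proteases tested, 6 of 9 and 5 of 8 are called higher and lie to the right, the called serpins lie to the right labelled 2iL and to the left labelled 48 h, and of the cohesin genes Rec8 alone is called, labelled 48 h. Several of the called proteases and serpins passed the low-count filter only through the group in which they were high.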

How the data were processed

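The deposited values are read counts per gene, 1 file per library, which the authors made without normalization: adaptors were removed with Trim Galore, reads were aligned to GRCm38 with TopHat and counted with featureCounts on Ensembl genes. Reads were single-end for the single mutants and paired-end for the second set. Symbols and coordinates came from GENCODE vM21 by Ensembl identifier, for 48349 of 48709 genes of the second set and 21852 of 22018 of the single-mutant set. The 92 spike-in rows were left out of library sizes.

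The test was edgeR 4.0.16 under R 4.3.3, with TMM scaling, filterByExpr and the two-sided quasi-likelihood F test with Benjamini-Hochberg adjustment over all genes tested, with the groups compared alone in the fit. Groups came from the sample labels. Alternatives were DESeq2 1.42.0, other scaling, no filter, a replicate block, single libraries left out, lines summed and 1 fit per set. The fit was checked on simulated counts. Exact binomial intervals (95%) were computed with scipy 1.17.1. Replicate numbers paired the libraries in the Mta1 series (lowest correlation of deviations 0.43 over 3 pairs) and in Control across cultures, where a number marks the same line (lowest 0.27 over 4). Libraries of 1 line differed beyond counting noise (chi-square per degree of freedom 6.32 to 19.4) and were kept apart.

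The genes named were the 6 chosen genes, relatives called in the same direction under both labels, neighbours, and the 3 genes of most similar pattern for each. Other relatives were named after their values were seen. The 6 genes and the lists were chosen with earlier results of these data known. RefSeq held start sites for 6 of 6 genes.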

Additional observations from a re-analysis of the deposited data

Results flagged for a closer look

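In the fit of the 18 single-mutant libraries, the Sgo2b difference of Mta2_KO from Mta2_WT exceeded that of Mta3_del/del from Mta3_flox/flox by 2.28 on the log2 scale. Sgo2b was higher in 3 of 3 Mta2_KO libraries than in any Mta2_WT library, while the Mta3 groups overlapped. In Serpinb1b, 1 Control library labelled 2iL stood apart from the other 3 of its group at 0.0409 CPM, which was 2 reads. In Mta123KO labelled 48 h, 1 library stood apart at 0.0549 CPM, which was 3 reads against 1 in each of the others. Of 24 groups of 4 libraries examined for the 6 genes, about 1 in 20 would be marked by chance. That rate does not apply to these Serpinb1b groups, where the other libraries were tied at 0 or 1 read and any differing library stands apart.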

How the results depend on the processing

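The number of the 6 genes called was 0 for Mta1, 3 for Mta2, 0 for Mta3 and 4 for culture in Control, and stayed so under each alternative run except that it was 1 for Mta2 in 1 fit of all 18 libraries. With each library left out in turn the counts were 0 to 0, 3 to 3, 0 to 0 and 4 to 4. With the replicate block they were 0, 3, 0 and 4, and the block changed no call of the 6 genes. Called relatives labelled 2iL numbered 12 higher in the main analysis, and 20 with DESeq2 or with no filter. Labelled 48 h, 8 were higher in the main analysis, 14 with DESeq2 or no filter, 15 in 1 fit of the 16 libraries and 5 with lines summed, where 5 rather than 9 were lower. Called neighbours fell from 7 to 3 labelled 2iL and from 4 to 2 labelled 48 h with lines summed. The cause was not tested, beyond the fewer samples of the summed fit.

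With culture labels exchanged the log2 differences in Control were -0.073 for Upp1, 0.41 for A430005L14Rik, 4.98 for Dgkb, -3.24 for Tmprss5, -6.66 for Serpinb1b and -3.96 for Sgo2b. Scaling by spike-ins moved the median of all genes by 0.18 in this comparison and by -0.18 in Mta123KO labelled 48 h, and A430005L14Rik then differed between cultures by -0.23 (adjusted p = 0.307). With 1 library left out, differences not past the threshold changed sign for Upp1 (Mta1 -0.13 to 0.46, culture -0.066 to 0.21), A430005L14Rik (Mta3 -0.16 to 0.065), Tmprss5 (Mta1 -1.17 to 0.45), Serpinb1b (Mta1 -1.29 to 0.79) and Sgo2b (Mta3 -0.62 to 0.16). Of 271 alternative fits of the 6 genes, 249 kept direction and side of the threshold, 17 changed sign and 5 lost the threshold. The 17 include the exchange of culture labels for each of the 6 genes, which turns the sign by construction. CPM on total counts moved a level by at most 7.90%. CPM over the genes that both sets list, a smaller total, moved a level by up to 54.2%, and 14 group means by more than their SD. At under 1 CPM, where Dgkb, Tmprss5, Serpinb1b and Sgo2b lie in several groups, counting error limits the comparisons.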
